A study of Mus musculus with 6 samples.

Results

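Autophagy is the route by which a cell wraps its own cytoplasm or damaged organelles in a double membrane, the autophagosome, and delivers them to the lysosome. A kinase complex starts the membrane, a lipid kinase complex marks it with PI3P, and a conjugation machinery attaches the small Atg8-like proteins (LC3 and GABARAP) to it, which receptors then use to bring in cargo. The retinal pigment epithelium (RPE) engulfs shed photoreceptor outer segments every day and digests them with part of the same conjugation machinery, in a process known as LC3-associated phagocytosis.

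The autophagy genes described here were the rows of the authors' poly(A) expression table whose symbol starts with Atg and a digit, or is one of a list of genes for initiation, lipid kinase, receptor, mitophagy, fusion and regulatory steps. The rule found 45 of the 33924 genes in the table, and 44 of them reached a mean normalized count of 10 (the authors' mean over the libraries, termed mean count below), 18 with an Atg symbol and 26 from the list. The single gene under this minimum was Calcoco2 (the receptor NDP52), which was listed at 0. A further 5 genes, Atg101, Tfeb, Tfe3, Rubcn and Epg5, stand in the table under older symbols (9430023L20Rik, Tcfeb, Tcfe3, 1700021K19Rik and 5430411K18Rik). They are given separately and are not counted among the 44.

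The libraries came from RPE/choroid of C57BL/6J mice, 3 young mice labelled as 1 to 2 months and 3 aged mice whose titles give 20 to 24 months and whose age field gives 22 to 24 months. The study's methods give a somewhat older range for the young group than the labels do. No mouse carried a transgene or received a treatment, the labels describe all as male, the study's methods mention both sexes, and both eyes of a mouse were pooled in a sample. The deposited table holds 1 mean for each gene over the 6 libraries of both ages and no value for a single library, so every level below is the authors' mean over young and aged RPE/choroid, with no spread between mice. The table's other columns are the authors' own comparison of the ages, which is not used here, and no comparison of young with aged mice was made. For the same reason no difference between levels below was tested, and genes next to each other in the order of levels cannot be said to differ.

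The means summed to 40816668 over all genes, and the depth of single libraries is unknown. Of the RPE markers, 6 of 7 lay far above the median gene, among them Ttr with a mean count of 397586 and Rpe65, the retinoid isomerase of the visual cycle, with 113930, while Best1 had 81.8. The tissue also held RNA of other cells. The 7 RPE markers summed to 990827 mean counts, the 5 rod photoreceptor markers to 250442, the 4 skeletal muscle markers to 167078, the 4 macrophage markers to 143845 and the 4 endothelial markers to 15475. How much of any autophagy gene's level came from each cell type was not tested, and in such bulk tissue more cells of a type and more RNA per cell cannot be told apart.

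The autophagy genes were expressed above the typical gene of the tissue. Together they held 178804 mean counts, which is 0.438% of all counts in the table. To compare genes of different size, each mean was divided by the length of the gene's longest annotated transcript, and "level" below means mean normalized count per kilobase. The study's methods describe TPM values turned into normalized counts, so it is not settled whether the deposited means already account for length, and mean counts are given beside levels for the main genes. The 44 genes had a median level of 557 (quartiles 221 and 1179), against 214 (quartiles 54.2 and 669) for the 17919 genes of the table that reached the same minimum and had a length. Their median gene stood at percentile 71.1 of these genes. Of the 44 genes, 33 lay above the median gene, where 50% of all genes lie by definition, 18 lay in the top 25%, and 10 (22.7%) lay in the top 10%. In contrast, 2 genes lay in the bottom 25%, one of them Atg9b.

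**Figure D1:**
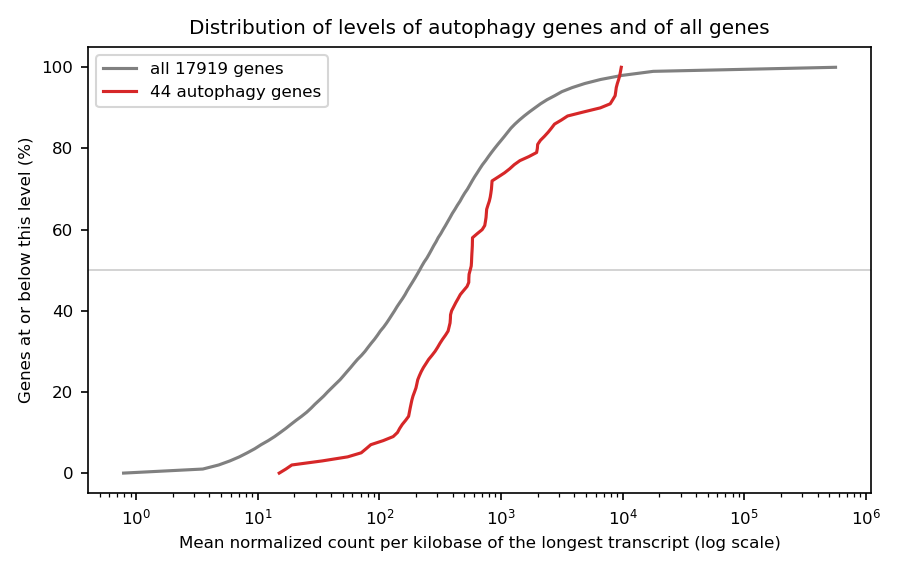
Share of genes (%) at or below each level (mean normalized count per kilobase of the longest transcript, log scale) for the 44 autophagy genes (red) and for all 17919 genes that reached a mean count of 10 and had a length (grey). The red curve lies to the right except at its top end, crossing 50% at 557 in place of 214.

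The summed level was carried by a few genes. The 5 highest, Sqstm1, Gabarap, Gabarapl1, Pink1 and Map1lc3a, held 61.4% of the summed level of the 44 genes. Of these, 3 encode Atg8-like proteins, Sqstm1 encodes a cargo receptor and Pink1 a kinase that marks damaged mitochondria. No gene of the groups for membrane supply or for the lipid kinase complexes that make PI3P was among these 5. The share of 61.4% was computed per kilobase of the longest transcript only. As deposited, Nbr1 and Bnip3l had higher mean counts (9597 and 8990) than Map1lc3a (8649). Around the middle, 19 of the 44 genes lay within 2-fold of the members' median. Sqstm1, Gabarap and Gabarapl1 were among the 5 highest genes on each of 5 scales (as deposited, and per kilobase of the longest transcript, the median transcript, the coding sequence or the gene's own sequence), and 2 genes, one of them Atg9b, were among the 5 lowest on each.

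**Figure D2:**
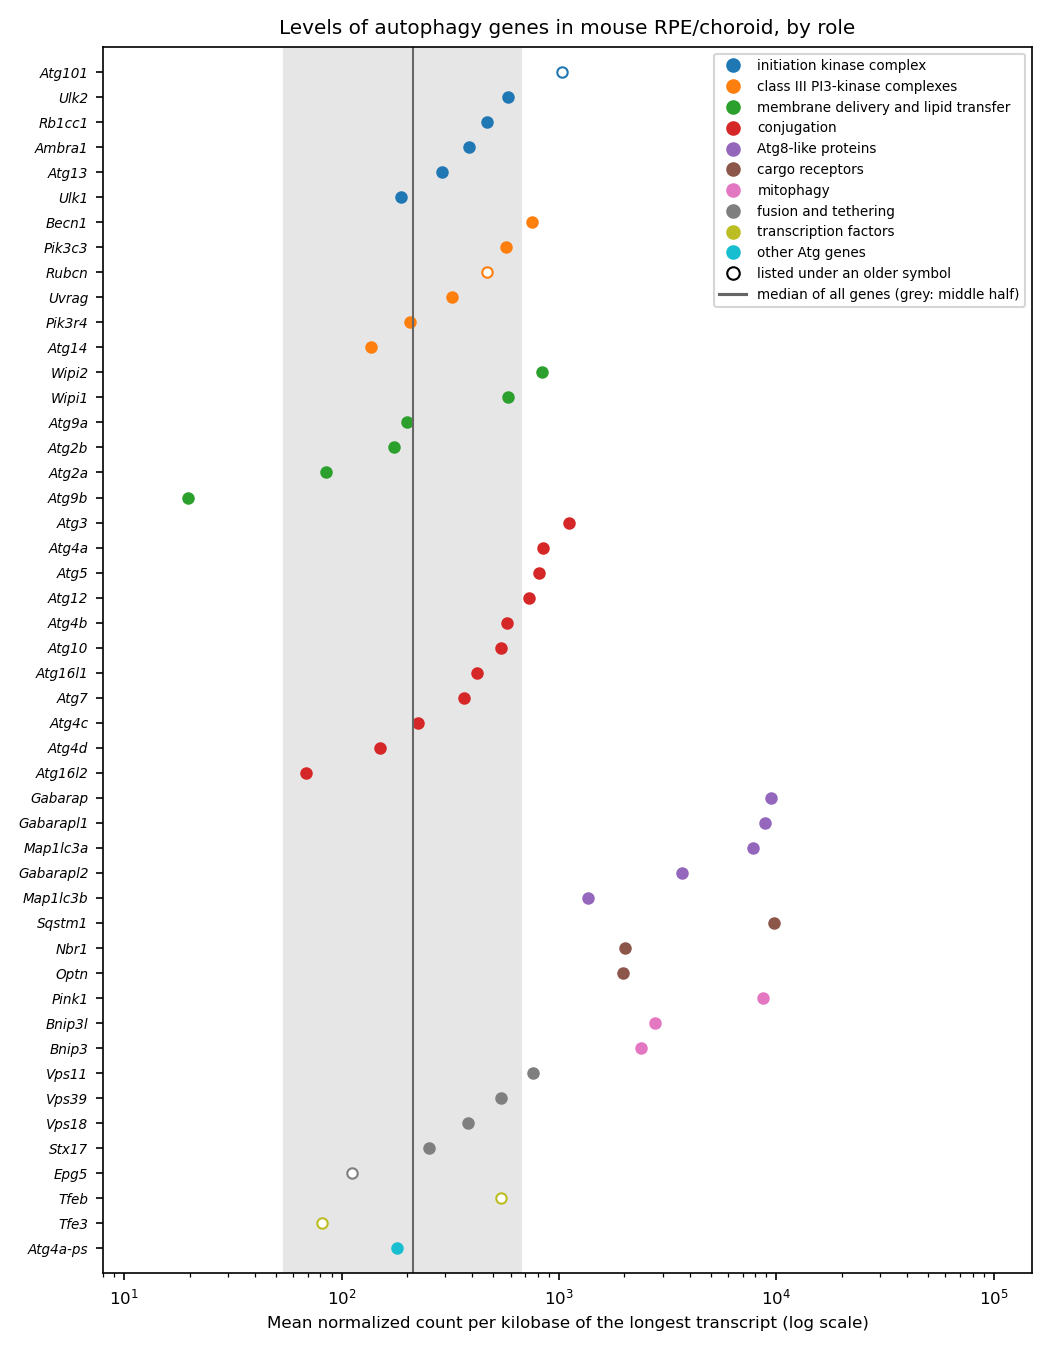
Level of each autophagy gene (mean normalized count per kilobase of the longest transcript, log scale), 1 point for each gene shown, coloured by role. Open points are the 5 genes listed under older symbols, the grey band is the middle 50% of all genes and the line their median (214). The Atg8-like genes, the cargo receptors, Pink1, Bnip3l and Bnip3 lie to the right of the band.

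The Atg8-like proteins are the small ubiquitin-like proteins that are coupled to lipid on the growing membrane. Their 5 genes held 43.0% of the members' summed level, and their median level of 7778 was 14.3 times that of the 11 conjugation genes. In mean counts as deposited, their share was 27.6% and the ratio of the medians was 5.47. Gabarap (ENSMUSG00000018567, chr11:69991143-69994951, plus strand, GRCm38) had a mean count of 12719 and a level of 9415. Gabarapl1 (ENSMUSG00000030161, chr6:129533160-129542346, plus strand) had a mean count of 16174, the highest of the family before division by length, and a level of 8887. Which of these 2 genes ranked higher therefore depended on the length used.

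Gabarapl2 followed with a mean count of 6155 and a level of 3670. Map1lc3a (ENSMUSG00000027602, chr2:155276297-155278073, plus strand) had a mean count of 8649 and a level of 7778. Map1lc3b (ENSMUSG00000031812, chr8:121590361-121598760, plus strand), which encodes the LC3B protein commonly used to follow autophagosomes, had a mean count of 5633 and a level of 1361, the lowest of the 5. Map1lc3a exceeded Map1lc3b on each of the 5 scales, by 1.54-fold as deposited, 2.20-fold per kilobase of coding sequence and 5.71-fold per kilobase of the longest transcript, which is 4138 bases long for Map1lc3b and 1112 for Map1lc3a. The GABARAP genes together held 70.6% of the family's summed level and the LC3 genes 29.4%.

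Cargo receptors bind ubiquitinated proteins or organelles on one side and Atg8-like proteins on the other. Sqstm1 (ENSMUSG00000015837, chr11:50199366-50210827, minus strand), which encodes p62, had the highest mean count of all 44 genes, 26018, and the highest level, 9734, at percentile 98.0 of all genes. Nbr1, a receptor related to p62, had a mean count of 9597 and a level of 2004. Optn (optineurin), a receptor for mitochondria and bacteria, had a mean count of 5171 and a level of 1978. All 3 detected receptors thus lay in the top 10% of genes, while Calcoco2 was listed at 0. A value of 0 is given for 2970 protein-coding genes.

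Mitophagy is the removal of damaged mitochondria by autophagy, and 3 of its 4 genes lay above the median gene. Pink1 (ENSMUSG00000028756, chr4:138313409-138326307, minus strand), the kinase that accumulates on damaged mitochondria, had a mean count of 20602 and a level of 8675. The receptors Bnip3l and Bnip3, which sit in the outer mitochondrial membrane, had a mean count of 8990 and a level of 2759 for Bnip3l (NIX) and 4206 and 2395 for Bnip3.

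The conjugation genes were moderately expressed, with a median level of 542 and 9 of 11 above the median gene. Among the enzymes that act on Atg8-like proteins and Atg12, the E2-like Atg3 had the highest level, 1118 (mean count 2327), and the E2-like Atg10 had 542. Their shared E1-like enzyme Atg7 had a level of 366 (mean count 1426). The lead of Atg3 among these enzymes depended on the scale. As deposited, the protease Atg4b had a higher mean count (2403). Atg7, Atg4a and Atg4b were higher than Atg3 per kilobase of the median transcript, and Atg4a per kilobase of own sequence. Atg12 and Atg5, whose products are joined to each other, had levels of 729 and 809. Atg16l1, which brings this conjugate to the membrane, had a level of 422, and its relative Atg16l2 had 68.4, the lowest of the group, with mean counts of 1582 and 442.

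The Atg4 proteases trim Atg8-like proteins before coupling and release them afterwards. Atg4a had a level of 844, Atg4b 574, Atg4c 225 and Atg4d 150. The order of Atg4a and Atg4b changed with the length used. Only 48.8% of the words of 50 bases in Atg4a transcripts occur in no other gene, since 51.2% are shared with Atg4a-ps, a single-exon copy on chromosome 3 that the rule also selects and that had a mean count of 380. RefSeq lists Atg4a-ps as a pseudogene, and GENCODE lists it as protein-coding. As deposited, Atg4b had the higher mean count, 2403 against 1858 for Atg4a.

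For 5 genes of the initiation step, counting the associated Ambra1 but not Atg101, the median level was 385. Ulk2 had a mean count of 3345 and a level of 583, and Ulk1, its close relative and the better studied kinase, had 973 and 187. Ulk2 was higher than Ulk1 by 3.12-fold per kilobase of the longest transcript and by 3.44-fold as deposited. Ulk1 was higher only when the median length of each gene's annotated transcripts was used. For Ulk1 that length is 645 bases, against 3171 bases of coding sequence. Rb1cc1 (FIP200), the scaffold of the complex, had a level of 466, the adaptor Atg13 had 291 and Ambra1, which links the complex to ubiquitin signalling, had 385. Atg101, which stabilises Atg13 and is listed under its older symbol, had a level of 1034.

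The class III PI3-kinase complexes make the lipid PI3P on the new membrane. Their core consists of the kinase Pik3c3 (VPS34), with a level of 570, the regulatory Pik3r4 (VPS15), with 207, and Becn1 (Beclin 1), with 752. Of the subunits that give the complexes their place, Uvrag, which acts on endosomes and later steps, had a level of 323, and Atg14, which directs the complex to autophagosome formation, had 137. Rubcn (Rubicon), which restrains autophagy and is required for LC3-associated phagocytosis, had a level of 468 under its older symbol. Atg14 was therefore the lowest of the 6 genes on this scale.

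Genes for membrane supply were the lowest group, with a median level of 187 and 2 of 6 above the median gene. Wipi2 and Wipi1, which read PI3P, had levels of 833 and 580. The lipid transfer proteins Atg2b and Atg2a had levels of 174 and 84.5, and the scramblase Atg9a had 200. Atg9b, the second Atg9 gene, had a level of 19.7 and a mean count of 76.9 against 842 for Atg9a. Atg9a shares 29.8% of its words of 50 bases with an overlapping gene model on the same strand, Gm29253.

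The genes that tether and fuse the autophagosome with the lysosome had levels between 252 and 762. The HOPS tethering subunits Vps11, Vps39 and Vps18 had levels of 762, 544 and 382, and the autophagosomal SNARE Stx17 had 252. Epg5, a further tether listed under its older symbol, had a level of 112. The transcription factors that drive lysosomal and autophagy genes differed, with a level of 543 for Tfeb (mean count 1272) and 81.6 for Tfe3 (mean count 516). Both factors are listed under older symbols.

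Of 12 pairs of related genes, 6 kept their order on each of the 5 scales, and 3 of these differed by more than 2-fold on each. Atg9a exceeded Atg9b by between 5.34-fold and 14.5-fold, Tfeb exceeded Tfe3 by between 2.46-fold and 13.9-fold, and Gabarapl1 exceeded Gabarapl2 by between 2.13-fold and 2.73-fold. Map1lc3a over Map1lc3b, Wipi2 over Wipi1 and Bnip3l over Bnip3 kept their order with smaller ratios on at least 1 scale. The order of Gabarap and Gabarapl1, Atg4b and Atg4a, and Atg4d and Atg4c changed with the length used. That of Ulk1 and Ulk2, Atg2b and Atg2a, and Atg16l1 and Atg16l2 changed only per kilobase of the median transcript. The median transcript is shorter than the coding sequence for Ulk1 (645 against 3171 bases), Atg2a (1140.5 against 5742) and Atg16l2 (608 against 1869).

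**Figure D3:**
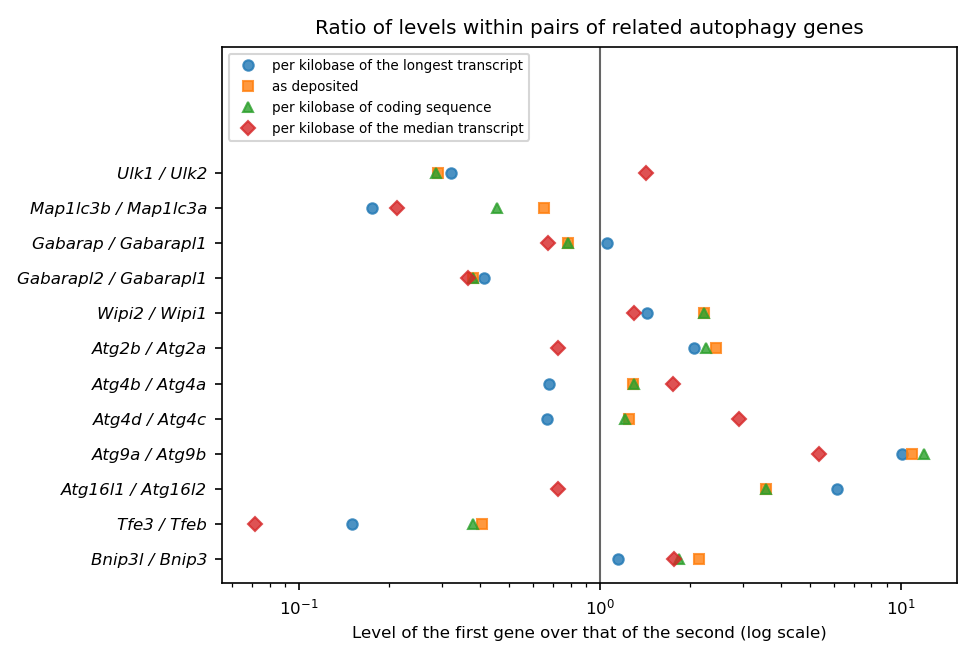
Ratio of the level of the first gene to that of the second in 12 pairs of related autophagy genes (log scale, line at 1), on 4 of the scales, 1 symbol per scale. Atg9a over Atg9b and Tfe3 over Tfeb stay on one side of 1. Ulk1 over Ulk2 and Atg16l1 over Atg16l2 have symbols on both sides, where only the symbol for the median transcript departs from the others.

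A list of 36 other genes of the pathway was placed beside the 44. All 36 reached the minimum, with a median level of 605, at the median percentile 72.8, and 28 of them lay above the median gene. The highest was Vamp8, the lysosomal SNARE that pairs with Stx17, with a level of 7433, and the lowest was the endoplasmic reticulum receptor Ccpg1, with 7.01. Tax1bp1, a receptor of the same family as Calcoco2, had a mean count of 12541 and a level of 2951. Of the relatives of Tfeb, Mitf, which is also a transcription factor of pigment cells, had a level of 1157 and Tfec, listed as Tcfec, had 36.9. The scramblases Vmp1 and Tmem41b had levels of 1618 and 1095, above that of Atg9a, and the further HOPS subunits Vps41, Vps16 and Vps33a had 1273, 753 and 410. Rab7, the small GTPase that recruits this complex, had a level of 2039. Of further receptors and factors of mitophagy, Fundc1 had a level of 1483, Phb2 1110 and Bcl2l13 186. Of the genes that sense nutrients, Mtor had a level of 275, Rptor 169, Prkaa1 500 and Prkaa2 165.

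Tfeb and its relatives bind the letters CACGTG, and more strongly the longer TCACGTGA, near many lysosomal and autophagy genes, and for that reason both were looked for on both strands in promoters from RefSeq (GRCm38.p6, 250 bases before to 50 bases after a gene start). The longer motif contains the shorter. A promoter was at hand for 33 of the 44 genes. CACGTG was found in 5 of the 33 (15.2%), against 10.9% of the 12705 genes that reached the minimum and 7.15% of all 32851 promoters. TCACGTGA was found in 1 of the 33 (3.03%), in Atg3, against 1.83% of those genes and 0.974% of all promoters. The motif-bearing stretches of 30 bases are shown because they are the one promoter feature searched by letters. They read along the gene's strand, with CACGTG in capitals, and the second of Atg3 holds the longer motif.

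Atg3, chr16:45158723-45158752, plus strand: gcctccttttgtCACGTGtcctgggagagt
Atg3, chr16:45158746-45158775, plus strand: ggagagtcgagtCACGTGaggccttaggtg
Atg5, chr10:44268313-44268342, plus strand: cggagcgcttgcCACGTGgtcttggtgacg
Atg7, chr6:114670952-114670981, plus strand: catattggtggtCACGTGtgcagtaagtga
Atg14, chr14:47568418-47568447, minus strand: aaaacaaaatccCACGTGactggccctgag
Bnip3, chr7:138909597-138909626, minus strand: gcgcacgcgccgCACGTGccacacgctccc

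The motif starts 94 and 71 bases before the gene start in Atg3, 14 in Atg5, 132 in Atg7, 1 in Atg14 and 108 in Bnip3, and the starts used for Atg7 and Atg14 lie 27999 and 2215 bases inside the annotated gene. Of 2 promoters of Rubcn, listed under its older symbol, the one at a start 9400 bases inside the gene holds CACGTG and the one near the annotated start does not. Of the 5 genes, 3 encode parts of the conjugation machinery, and 1, Atg14, was among the lowest of the 44 in level. The conjugation machinery has 11 of the 44 genes, of which Atg12 and Atg16l1 had no promoter at hand and were not searched. Whether the motif goes with a role was not tested. The median level was 809 for the 5 genes with the motif and 464 for the 28 without it. Levels of the 5 ran from 137 for Atg14 to 2395 for Bnip3, and the difference between the medians was not tested. Promoters of the 33 genes had a median GC content of 61.7%, against 61.0% for the genes that reached the minimum, and 28 of them (84.8%, against 67.3%) had an observed over expected CpG ratio above 0.6, as CpG islands do.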

How the data were processed

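The authors prepared poly(A)-selected libraries from RPE/choroid of 3 young and 3 aged mice and read both ends of each fragment for 100 bases. According to the study's methods, the authors trimmed and filtered the reads with BBDuk, mapped them with STAR to GRCm38 transcripts, quantified them with Sailfish and scaled them by total counts before DESeq2. The submitters' processing notes name STAR, DESeq2 and GRCm38, and no version of STAR or DESeq2 is given in the sources used here. The deposited signal for each gene is the authors' mean normalized count over the libraries. The 5 other columns of the deposited file hold the authors' comparison of young with aged mice (fold change, standard error, test statistic, p-value and adjusted p-value) and were not used.

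The 1698 genes with the lowest values above 0 were all sums of 1 or 2 of 6 steps (tolerance 2e-05), as whole-number values in 6 libraries give. Of them, 1014 held 2 steps of the same size against 576 with 1 step. These steps do not settle whether the means already account for length. Across 15493 protein-coding genes the mean and transcript length had a Spearman rank correlation of 0.0987. Lengths, positions and gene types came from GENCODE M21 (GRCm38), matched by symbol or RefSeq synonym for 97.0% of the 18479 genes that reached the minimum of 10. The longest transcript of a gene need not be the one expressed. Own sequence is the percent of a gene's words of 50 bases that occur in the transcripts of no other gene. It was at least 99% for 31 of the 44 genes and under 90% for 6, and 19 genes overlap a gene on the other strand. No test between groups of mice was run. The functions used were tested on simulated data.

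The members and lists were chosen with earlier results of these data known. The genes found by the rule are named, except 1 that is counted in the summaries but not reported here, and of the other pathway genes the highest and lowest. Further pathway genes were chosen after their values were seen. The marker lists, of which the sums are in mean normalized counts, also included melanocyte and pigment genes (524287) and fibroblasts (115656). Schwann cells (5411) and red cells (39436, with Hbb-bs not analysed here) were further lists. Computations used Python 3.11.15, numpy 2.4.6, pandas 2.3.3 and scipy 1.17.1, and figures used matplotlib 3.10.9.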

Additional observations from a re-analysis of the deposited data

How the results depend on the processing

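The values here rest on the length by which a mean is divided, on low-value filters and on the genes set beside the 44, and each depends on 1 mean over 6 libraries. The members' median level of 557.2 became 1920 as deposited, 1237 per kilobase of the median transcript and 1052 per kilobase of coding sequence, which are other scales by construction. It became 544.1 with no filter, 543.2 with the 5 genes under older symbols and 557.5 per kilobase of own sequence. The median percentile of 71.08 became 74.49 as deposited, 70.29 with the median transcript, 65.63 with coding length, 70.65 among protein-coding genes and 64.03 with a minimum of 100, so it stayed above 50 under each. The Atg8-like share of the summed level, 42.95%, became 27.59% as deposited, 33.08% with the median transcript, 58.02% with coding length and 41.79% with own sequence. The median of the Atg8-like genes over that of the conjugation genes, 14.34, became 5.467 as deposited, 9.311 with the median transcript and 17.57 with coding length. The share of all counts, 0.4381%, became 0.4748% without the 10 highest genes. The number of members was 44 with a minimum of 1 and 42 with a minimum of 100, and 6 or 7 of the 12 pairs had the first gene higher. Own sequence, older symbols, this ratio, and the median transcript and coding length for some of these results were added after the data were seen. No replicate could be left out and no paired analysis was possible because single libraries have no values in the file, so depth and the spread between mice limit each value to an unknown degree.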
